A study of Mus musculus with 2 samples.

Results

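Eomes-positive intermediate progenitors with little mRNA of dividing-cell genes were examined in the newborn mouse cortex. The cells were selected on their own measured values, from the raw counts of unique molecular identifiers (UMIs, each standing for 1 captured mRNA). Barcodes counted as cells when they held 500 or more genes and no more than 10% mitochondrial UMIs. A kept cell was included when it carried at least 2 Eomes UMIs, a sum of Mki67, Top2a and Cenpf under 3, a sum of Gad1 and Gad2 of at most 1, and no UMI of Trp73, Lhx5, Lhx1 or Pdgfra. This rule found 293 of 12846 kept cells, out of 19913 barcodes, of which 155 came from the wild-type library and 138 from the STING-deleted library. They are called noncycling Eomes cells here, because the rule reads dividing-cell genes at the moment of capture and does not follow a cell to its last division.

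The study asked how loss of STING, the cytosolic DNA-sensing adaptor encoded by Tmem173, changes cortical neurogenesis, and profiled single cells with the 10x Genomics Chromium system. There were 2 groups with 1 library each. Both came from C57BL/6 mice at postnatal day 0, labelled as telencephalic tissue and described in the methods as cerebral cortex. The control is labelled WT, although the study's text also calls its single-cell control STING fl/fl, that is, floxed without Cre. The other group is STINGf/f;Nestin-Cre (cKO), in which the Nestin promoter drives Cre in neural progenitors and the cells born from them, a lineage that does not include microglia or vessel cells. How many animals were pooled is not given in the sources used here. With 1 library a group there was no replicate check, no test was run, and every interval below is a 95% interval that covers counting error only.

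The kept cells had a median of 6653 UMIs in WT and 7629 in cKO, and the noncycling Eomes cells 6373 and 8074. Of the barcode sequences, 19 occurred in both libraries and 0 of these belonged to noncycling Eomes cells. Tmem173 was nearly silent in these cells, with 2 UMIs in WT and 0 in cKO, and 3 UMIs would be 2.66 and 2.52 CPM (UMIs scaled to a total of 1000000), so its loss could not be seen in them. The whole set of kept cells gave 132 UMIs of it for WT and 18 for cKO. The 66 WT and 33 cKO microglia, which are not born from neural progenitors, gave 23 and 3. Whether the Cre acted in microglia was not tested. The libraries also differed in sex-linked mRNA. In the noncycling Eomes cells Xist, the RNA that coats the inactive X chromosome, was absent from WT and gave 1436 UMIs in cKO, whereas the Y-linked Ddx3y gave 66 and 0. Genotype, sex, animals and library preparation cannot be told apart in any difference between the libraries.

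Intermediate progenitors are born from radial glia at the ventricular surface, move to the subventricular zone and divide there to give glutamatergic neurons. They switch on Eomes, a T-box transcription factor also called Tbr2, while radial glial genes such as Sox2 and Vim decline and neuronal genes such as Neurod2 and Tubb3 come on. Around the last division the daughters become multipolar and use small GTPases such as Rnd2 to start migrating.

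Of the kept cells, 211 in WT and 202 in cKO held 2 or more Eomes UMIs. The dividing-cell limit removed 43 and 35 of them, and the Gad limit 11 and 20. The Trp73, Lhx5 and Lhx1 limit removed 0 and 8, and Pdgfra 2 and 1. Most of the cells that remained were far from the dividing-cell limit, since 142 of the 155 WT cells and 127 of the 138 cKO cells had no UMI of Mki67, Top2a or Cenpf. Eomes counts ran from 2 to 24 in WT with a median of 3, and from 2 to 19 in cKO with a median of 5. Exactly 2 UMIs, just inside the limit, were held by 51 WT and 32 cKO cells, and 10 or more by 17 and 20. Just outside it stood 118 WT and 75 cKO cells with 1 Eomes UMI.

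**Figure D1:**
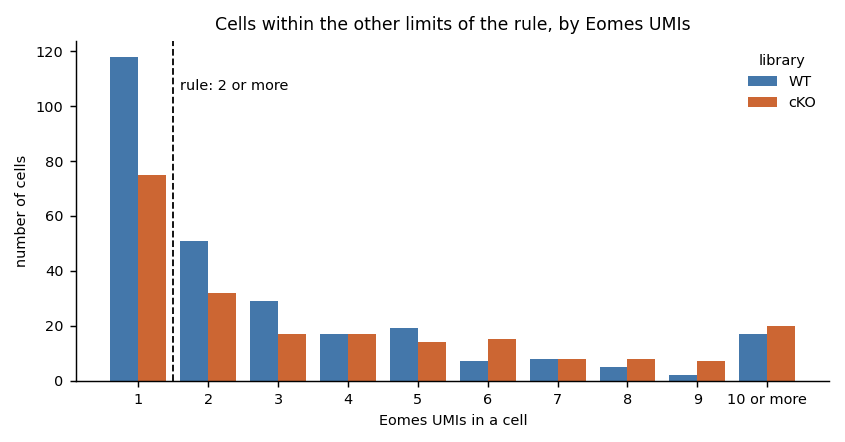
Number of cells (vertical axis) by Eomes UMIs per cell (horizontal axis) among kept cells within the other limits of the rule, cells with no Eomes UMI left out; blue bars are WT and orange bars cKO. The dashed line marks the limit of 2 UMIs, with 118 WT and 75 cKO cells just outside it and 51 and 32 just inside.

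Some marker levels were alike on both sides of the limit and others were not. Sstr2, a somatostatin receptor, stood at 240 CPM in WT and 241 CPM in cKO in cells with 1 Eomes UMI, and at 271 and 275 CPM in cells with 2. Neurod2, a later neuronal factor, was at 657 and 557 CPM in cells with 1 Eomes UMI, against 268 and 220 CPM in cells with 3 or more. Btg2, an antiproliferative gene of neurogenic progenitors, went the other way, at 58.7 and 44.7 CPM with 1 Eomes UMI, 158 and 170 CPM with 2, and 338 and 285 CPM with 3 or more. Neurog2 was at 29.3 and 30.3 CPM with 1, and at 64.8 and 36.1 CPM with 2.

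The marker genes of intermediate progenitors stood together in the selected cells. Of all genes with at least 50 UMIs, the 15 with the highest level over other kept cells in both libraries were Eomes, Mfap4, Tac2, Neurog2, Sstr2, Mdk, Rnd2, Pam, Neurod1, Ezr, Loxl1, Igfbpl1, Nrn1, Emx1 and Serping1. Eomes leads because the rule used it. Mfap4, an extracellular matrix protein, was at 329 CPM in WT (interval 297 to 365) and 302 CPM in cKO (interval 271 to 335), against 15.8 and 14.8 CPM in other kept cells. Sstr2 was at 282 and 281 CPM against 26.8 and 36.6 CPM. Rnd2 was at 412 and 398 CPM against 55.9 and 69.7 CPM. Neurog2, the proneural factor that turns on Eomes and Rnd2, was at 120 and 91.6 CPM against 7.01 and 5.84 CPM. All 4 supporting markers were therefore several times more abundant here than in the pool of other kept cells in both libraries. Cells with 1 Eomes UMI, which belong to that pool, were closer for Rnd2 and Sstr2. In them Rnd2 was at 405 CPM in WT and 346 CPM in cKO, and Sstr2 at 240 and 241 CPM. Mfap4 and Neurog2 were lower there, at 131 and 136 CPM and at 29.3 and 30.3 CPM.

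The abundant Igfbpl1, which encodes an insulin-like growth factor binding protein of young neurons, was at 3399 CPM in WT and 3401 CPM in cKO, and 154 of 155 and 136 of 138 cells held at least 1 UMI of it. Midkine (Mdk), a secreted growth factor, was at 978 and 1128 CPM against 151 and 154 CPM in other kept cells. Neurod1, a bHLH factor downstream of Neurog2, was at 305 and 282 CPM. Neurog1, a relative of Neurog2, was at 0 UMIs in both libraries, under the floor of 3 UMIs, or 2.66 and 2.52 CPM.

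The identity genes were seen in a larger share of these cells than of microglia, which served as a guide to free RNA in the droplets. The level of free RNA itself was not measured. After each cell was thinned to 3000 UMIs, which left out 2 WT and 0 cKO cells, Sstr2 was seen in 53.6% of WT (45.4 to 61.7) and 50.7% of cKO (42.1 to 59.3) noncycling Eomes cells. In microglia (at least 3 UMIs of C1qa, C1qb and C1qc), which should lack the gene and had median depths of 9996 and 12051 UMIs, it was seen in 1.82% and 0%. Without thinning the shares in noncycling Eomes cells were 73.5% and 79.7%. Rnd2 was seen after thinning in 67.3% and 65.2% of them, against 0% and 3.23% of microglia. Neurog2 was seen in fewer of the cells, 21.6% and 18.8%, against 0% and 0%, and Mfap4 in 37.3% and 52.2%, against 0% and 0%.

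The cells were set beside their neighbours. Sox2, a stem cell factor, was at 938 and 957 CPM in noncycling radial glia (kept cells within the limits, with Sox2 and Slc1a3 but no Eomes, Neurod2 or Neurod6), at 494 and 372 CPM in Eomes cells above the dividing-cell limit, at 150 and 218 CPM in noncycling Eomes cells, and at 26.4 and 21.2 CPM in Eomes-negative projection neurons (at least 2 UMIs of Neurod2 and Neurod6). Neurod2 ran in the reverse order, from 62.9 and 74.0 CPM in the dividing Eomes cells to 351 and 269 CPM in noncycling Eomes cells and 592 and 687 CPM in the neurons. Sox2, Slc1a3, Neurod2, Neurod6 and Eomes were used to define these groups, so their levels are a description and no support for the order. Sstr2, Rnd2 and Igfbpl1 peaked in the noncycling Eomes cells in both libraries, whereas Mfap4 was about as high in the dividing Eomes cells, at 322 and 317 CPM.

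**Figure D2:**
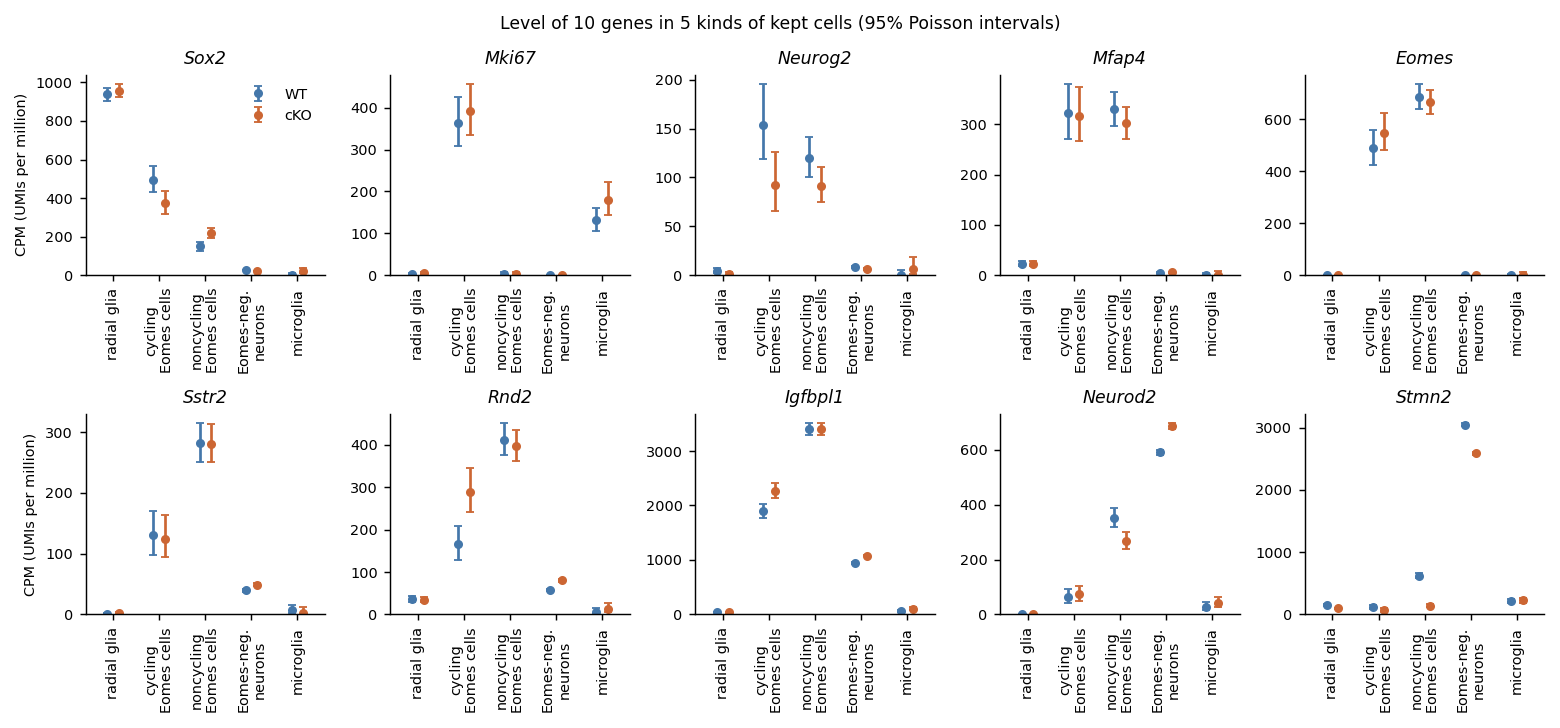
Level of 10 genes in CPM (vertical axes, each from 0) in 5 kinds of kept cells (horizontal axes), as points with 95% Poisson intervals, WT in blue and cKO in orange. Sstr2, Rnd2 and Igfbpl1 were highest in noncycling Eomes cells, while Stmn2 there was at 623 CPM in WT and 140 CPM in cKO.

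Some mRNA of the G1/S and replication list was still present in the noncycling Eomes cells. The 24 genes of the G1/S and replication list summed to 1169 CPM in WT and 1264 CPM in cKO, beside 1316 and 944 CPM in the other kept cells, which include dividing cells. Ccnd2, the cyclin carried by cortical progenitors, was at 410 and 527 CPM. The 19 G2/M genes, none of them a gene of the rule, summed to 337 and 434 CPM against 1102 and 883 CPM. Most of that was Hmgb2, a chromatin protein, with 258 and 353 CPM. The rule removed cells rich in dividing-cell genes, and the other kept cells include them. The lower G2/M sum is therefore a description of the selection and no support for it.

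Markers of other cells were scarce. The 8 GABAergic genes summed to 105 UMIs in WT and 46 in cKO (93.0 and 38.7 CPM, against 614 and 536 CPM in other kept cells), with Gad1 and Gad2 held down by the rule. Oligodendrocyte precursor genes had 10 and 0 UMIs, astrocyte genes 42 and 21, mural genes 12 and 10, and erythroid genes 15 and 6. Microglial, endothelial, ependymal, granulocyte and mitral and tufted cell lists had at most 7 UMIs each, and C1qa, C1qc, Cx3cr1, P2ry12, Pecam1, Kdr and Sox10 were at 0, as was Pdgfra by the rule. In the Cajal-Retzius list the defining Trp73, Lhx1 and Lhx5 were at 0 by the rule and Reln had 10 and 5 UMIs, but the calcium-binding Calb2 had 118 and 235. Its UMIs were held by few cells, 81.4% of them by 10 cells in WT and 93.2% by 10 cells in cKO. Cells with at least 3 Tac2 UMIs, described below, held 15 of the 118 in WT and 101 of the 235 in cKO.

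The cells were ordered by Neurod2 and Neurod6, counted together after thinning to 3000 UMIs. No UMI of the pair was held by 31 WT and 42 cKO cells, 1 to 2 by 64 and 55, and 3 or more by 58 and 41. The genes followed over this order were chosen by hand from the lists. The share of all genes with such an order was not computed, so the counts have no background. Of the 7 radial glial genes followed, out of 19 listed, 5 were lower at each later step in both libraries (Sox2, Vim, Pax6, Hes5 and Slc1a3) and 0 were higher. Vim, the intermediate filament of radial glia, was at 555, 196 and 54.0 CPM in WT and at 669, 194 and 30.9 CPM in cKO. Sox2 was at 284, 169 and 38.5 CPM in WT and at 371, 177 and 89.6 CPM in cKO. Its intervals for the lowest and highest classes did not overlap in either library.

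Of the 20 intermediate progenitor genes 4 were lower at each later step in both libraries (Btg2, Chd7, Nhlh1 and Mfap4), 3 were higher (Rnd2, Sstr2 and Cxcl12) and 13 followed neither order in both. The order was read from values alone, and intervals of neighbouring steps could overlap. In WT, Sstr2 was nearly level, at 271 CPM (209 to 346) in cells without the pair and 276 CPM in the next class. Btg2 was at 509, 304 and 116 CPM in WT and at 411, 204 and 148 CPM in cKO. Chd7, a chromatin remodeller, was at 338, 192 and 74.5 CPM in WT and at 492, 274 and 167 CPM in cKO. Nhlh1, a bHLH factor of newly born neurons, was sparse and went from 45.9 to 7.71 CPM in WT and from 27.8 to 0 CPM in cKO. Insm1, by contrast, was at 163, 367 and 332 CPM in WT and at 315, 321 and 337 CPM in cKO.

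The genes followed here were 8 of the 18 migration, 13 of the 18 projection neuron and 7 of the 15 layer genes. Of the 8 migration genes 7 were higher at each later step in both libraries. So were 6 of the 13 projection neuron genes and 5 of the 7 layer genes, and 0 of these were lower at each step in both. Nrp1 and Cux1 were among those without a shared order. These counts too have no background over all genes, and Tbr1 counts in both the projection neuron and the layer genes. Rnd2 was at 317, 371 and 511 CPM in WT and at 262, 400 and 560 CPM in cKO. Sox11, a factor of immature neurons, was at 3476, 4028 and 6201 CPM in WT and at 3070, 5301 and 6865 CPM in cKO. Unc5d, a netrin receptor of multipolar cells, was at 66.8, 194 and 293 CPM in WT and at 53.0, 65.9 and 111 CPM in cKO. Sema3c, a secreted guidance cue, was at 167, 240 and 427 CPM in WT and at 32.8, 70.2 and 179 CPM in cKO, so its order was shared although its level differed at each step. Pou3f3, an upper-layer factor, went from 321 to 606 CPM in WT and from 320 to 881 CPM in cKO.

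Some genes did not follow this order in both libraries. Eomes was at 855, 750 and 486 CPM in WT but at 583, 802 and 566 CPM in cKO. Fabp7, a radial glial lipid carrier, was at 543, 891 and 362 CPM in WT and at 689, 132 and 114 CPM in cKO. The cells ordered here are those of 1 library each, and neither pattern has a replicate.

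**Figure D3:**
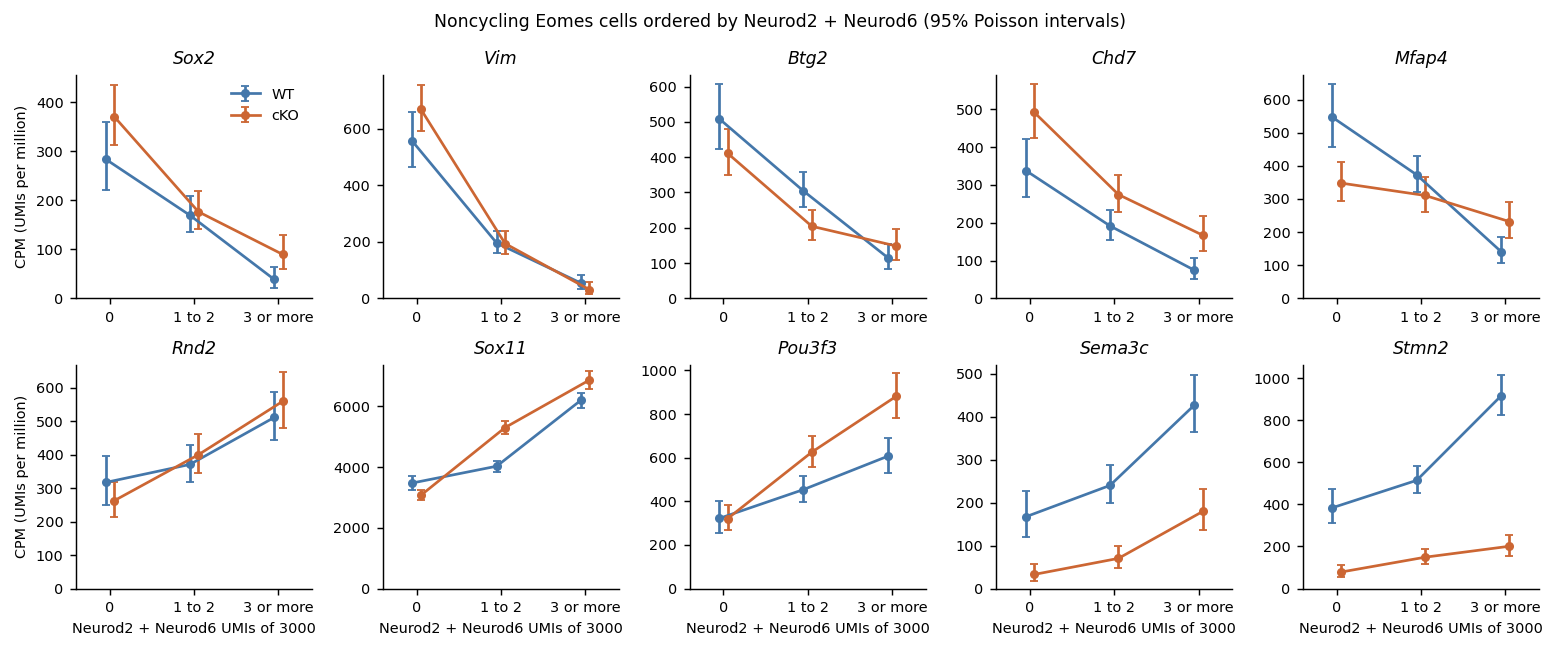
Level of 10 genes in CPM (vertical axes, from 0) in noncycling Eomes cells with 0, 1 to 2, or 3 or more UMIs of Neurod2 plus Neurod6 after thinning to 3000 UMIs (horizontal axes), with 95% Poisson intervals, WT in blue and cKO in orange. Sox2, Vim, Btg2, Chd7 and Mfap4 decline and Rnd2, Sox11, Pou3f3, Sema3c and Stmn2 go up in both libraries, with Sema3c and Stmn2 lower in cKO at every step. The cKO Stmn2 values are all below the level in cKO microglia.

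Splitting the cells by Neurog2 gave a smaller contrast. Cells with at least 1 Neurog2 UMI after thinning, 33 in WT and 26 in cKO, had Btg2 at 424 and 365 CPM, against 238 and 232 CPM in the 120 and 112 cells without. Sox2 was at 221 and 288 CPM against 125 and 200 CPM. Rnd2 was lower where Neurog2 was seen, at 354 and 272 CPM against 425 and 429 CPM. Slc1a3, a glutamate transporter of radial glia, was at 114 CPM with Neurog2 and 189 CPM without in WT, and at 276 and 105 CPM in cKO. Stmn2 was at 696 and 602 CPM in WT and at 97.6 and 150 CPM in cKO, so in value Slc1a3 and Stmn2 differed in opposite directions in the 2 libraries. The intervals with and without Neurog2 overlapped for both genes in WT and for Stmn2 in cKO.

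A small subset carried Tac2, the gene of the neuropeptide neurokinin B, and it was looked at after its values were seen. Tac2 was held by 17 WT and 18 cKO cells, and 10 cells carried 88.8% and 88.0% of its UMIs. At least 3 UMIs were held by 13 WT and 15 cKO cells. In these cells Neurod1 was at 865 CPM in WT (interval 699 to 1058) and 555 CPM in cKO (interval 438 to 694), against 246 and 245 CPM in the other noncycling Eomes cells. Mfap4 was at 1003 and 642 CPM against 258 and 257 CPM. Prox1, a homeobox factor of hippocampal granule cells among others, was at 138 and 123 CPM against 42.1 and 34.2 CPM, and Lhx9 at 239 and 151 CPM against 23.5 and 40.0 CPM. Calb2 differed between the libraries, at 138 CPM against 101 CPM in WT and at 728 CPM against 128 CPM in cKO.

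The same cells were poor in genes of the other noncycling Eomes cells. Pou3f2, an upper-layer factor, was at 110 and 130 CPM against 666 and 492 CPM. Ptn, the growth factor pleiotrophin, was at 92.0 and 79.3 CPM against 851 and 536 CPM. Fabp7 was at 120 and 72.1 CPM against 687 and 344 CPM. Eomes itself was at 616 CPM in WT against 693 CPM and at 512 CPM in cKO against 685 CPM, with intervals that overlapped in both libraries. The contrasts in Pou3f2, Ptn and Fabp7 were seen in both libraries, and since the genes were picked for it, these values are a description of 28 cells.

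The share of noncycling Eomes cells among kept cells was 2.29% in WT (1.95 to 2.68, Clopper-Pearson) and 2.27% in cKO (1.91 to 2.68). The difference, cKO minus WT, was -0.021 percentage points (-0.54 to 0.50, Newcombe). These are cells captured, so losses in dissociation enter the share. A limit of 1 Eomes UMI gave 4.03% and 3.50%, and a limit of 3 gave 1.54% and 1.74%, so the direction moved with the limit while each interval of the difference included 0.

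To compare the libraries gene by gene, UMIs were summed over the cells and the log2 ratio of CPM + 10 was taken as cKO over WT, for the 4519 genes that reached 50 UMIs in one library or the other. The added 10 CPM understates the difference of low genes. Of these genes 138 (3.05%) were higher in cKO by at least 2-fold and 339 (7.5%) lower, so 28.9% of the genes past the fold were higher. Scaling by TMM factors raised that to 43.8% and moved the median over all genes by 0.099, from 0.048. A gene that reached 50 UMIs in 1 library alone was admitted through its higher side, which held for 234 of the 339 lower and 95 of the 138 higher genes. Of the 3254 genes with 50 UMIs in both libraries 105 were lower and 43 higher. The shares of 3.05% and 7.5% are the background for the lists below, which were chosen with earlier results of these data known. The other kept cells set beside them are a mixed pool whose make-up differed between the libraries. Eomes-negative projection neurons were 2558 of its 6611 cells in WT and 2839 of 5942 in cKO, and noncycling radial glia 484 and 385. A ratio in that pool therefore reflects the kinds of cells in it as well as their levels.

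The intermediate progenitor genes passed 2-fold about as rarely as all genes did. Of 20 genes 16 had enough UMIs, 0 were higher and 1 was lower by at least 2-fold, and the median log2 ratio was -0.046, with -0.049 in other kept cells. The ratio intervals of 6 of the 16 did not include 0, where those of 2520 of all 4519 genes did not. Eomes, which is in the list and was used to choose the cells, was at 685 CPM in WT (interval 638 to 735) and 665 CPM in cKO (interval 619 to 713). Sstr2 differed by -0.0042 on the log2 scale (-0.23 to 0.22) and Rnd2 by -0.049 (-0.24 to 0.14). Hes6, an inhibitor of Hes1, was at 245 and 249 CPM, and Insm1, a zinc-finger factor that promotes basal progenitors, at 310 and 323 CPM.

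Within that list single genes stood apart. Elavl4, an RNA-binding protein of young neurons, was at 432 CPM in WT (interval 395 to 472) and 109 CPM in cKO (interval 91.3 to 130), and in other kept cells at 154 and 52.0 CPM. Chd7 was higher in cKO, at 318 CPM against 182 CPM in WT, whereas in other kept cells it was at 78.8 CPM in WT and 71.6 CPM in cKO. Dll3, a Notch ligand-like protein of neurogenic progenitors, was at 51.3 CPM in WT and 90.8 CPM in cKO, against 20.9 and 13.9 CPM elsewhere. Tmem158, a membrane protein, was lower in cKO at 173 and 85.7 CPM, a log2 ratio of -0.93, against 196 and 232 CPM elsewhere. Of these only Elavl4 passed 2-fold, and Tmem158 did so when cells were thinned before the rule.

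Radial glial genes were past 2-fold in neither direction, 0 of 11, with a median of 0.094 beside -0.26 in other kept cells. Sox2 was at 150 CPM in WT (interval 128 to 174) and 218 CPM in cKO (interval 192 to 246), with intervals that did not overlap. Vim was at 222 and 308 CPM. Fabp7 was on the other side, at 632 and 313 CPM and just short of 2-fold, and it was lower in cKO in other kept cells too, at 2286 and 1187 CPM. The sign of the median depended on the cells taken, since it was 0.48 without the cells called as doublets, 8 in WT and 0 in cKO, and -0.26 with a limit of 3 Eomes UMIs. Of the Notch genes 0 of 7 passed 2-fold, with a median of 0.47 beside 0.011. Notch1, the receptor, was at 52.2 CPM in WT (interval 39.8 to 67.4) and 90.8 CPM in cKO (interval 74.4 to 110).

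A subset of the projection neuron genes was lower in the cKO cells. Of 17 projection neuron genes 7 were lower by at least 2-fold and 0 higher, where 7.5% of all genes were lower, and the median was -0.63 against 0.020 for the same genes in other kept cells. The 7 were Stmn2, Mef2c, Gap43, Nrp1, Bhlhe22, Bcl11a and Mapt, of which Nrp1 and Bhlhe22 reached 50 UMIs in WT alone. Stmn2, a microtubule regulator of growing neurites, was at 623 CPM in WT (interval 578 to 671) and 140 CPM in cKO (interval 119 to 162), while other kept cells held 2043 and 1882 CPM. Its log2 ratio was -0.12 in that pool and -0.24 in Eomes-negative projection neurons. Mapt, which encodes tau, was at 343 and 138 CPM against 1035 and 1050 CPM. Bcl11a, a zinc-finger factor of cortical neurons, was at 346 and 121 CPM against 410 and 255 CPM.

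The other 10 genes of the list did not pass 2-fold. Tbr1, the T-box factor that follows Eomes, was at 228 CPM in WT (interval 201 to 258) and 237 CPM in cKO (interval 210 to 266). Sox11 was at 4686 and 4983 CPM, Slc17a6, a vesicular glutamate transporter, at 117 and 122 CPM. Neurod2, Neurod6, Dcx, Tubb3 and Map2 were lower in cKO with intervals that did not overlap, at log2 ratios of -0.37, -0.43, -0.41, -0.46 and -0.63. Such gaps were common, since the ratio intervals of 2520 of all 4519 genes did not include 0, beside 15 of these 17 in either direction. Rbfox3, the neuronal marker NeuN, was at 191 and 232 CPM, whereas Zbtb18, a repressor of the early neuron, was at 497 and 256 CPM and just short of 2-fold.

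The WT cells that carried most of the neuronal mRNA were few. At least 10 Stmn2 UMIs were held by 20 of 155 WT cells, which had 439 of the 704 Stmn2 UMIs, and by 2 of 138 cKO cells. The 10 richest WT cells held 58.8% of the Meg3 UMIs and 70.0% of the Mef2c UMIs. Without the 20 and 2 cells, an alternative that lowers Stmn2 by its own construction, 3 of the 17 genes were lower by at least 2-fold, namely Stmn2 at a log2 ratio of -1.23, Bhlhe22 and Bcl11a. Without the doublets 4 of 17 were lower, and Mef2c was at -0.91 in place of -1.98. Mef2c, a factor of mature projection neurons, thus rested on few cells, while the median of the list was -0.60 and -0.65 in these alternatives.

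Neuronal mRNA was also found in microglia. After thinning, Stmn2 was seen in 60.1% of WT (51.9 to 68.0) and 31.9% of cKO (24.2 to 40.4) noncycling Eomes cells, and in 25.5% and 12.9% of microglia. Meg3, a maternally expressed noncoding RNA of neurons, was seen in 56.9% and 23.2%, against 38.2% and 12.9% of microglia. As a level, Stmn2 in microglia was at 216 and 224 CPM, so the WT noncycling Eomes cells stood above the microglia by share and by level, while in cKO they stood above by share and below by level, and no order is read for cKO. How much free RNA added to each library's value was not tested.

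The lower Stmn2 was present at each step of the Neurod2 and Neurod6 order. It was at 384 CPM in WT and 78.2 CPM in cKO in cells without the pair, at 514 and 149 CPM in the middle class, and at 915 and 201 CPM in the highest. The cKO values at each step were below the Stmn2 level of cKO microglia given above. Sema3c was lower in cKO at each step too, with intervals that did not overlap. Unc5d and Cux2 were lower at each step in value, but in cells without the pair the intervals of both overlapped, and those of Cux2 overlapped in the middle class as well. The lower values were thus seen within these classes, which are coarse. Whether the cells of a class were equally mature in both libraries was not tested.

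**Figure D4:**
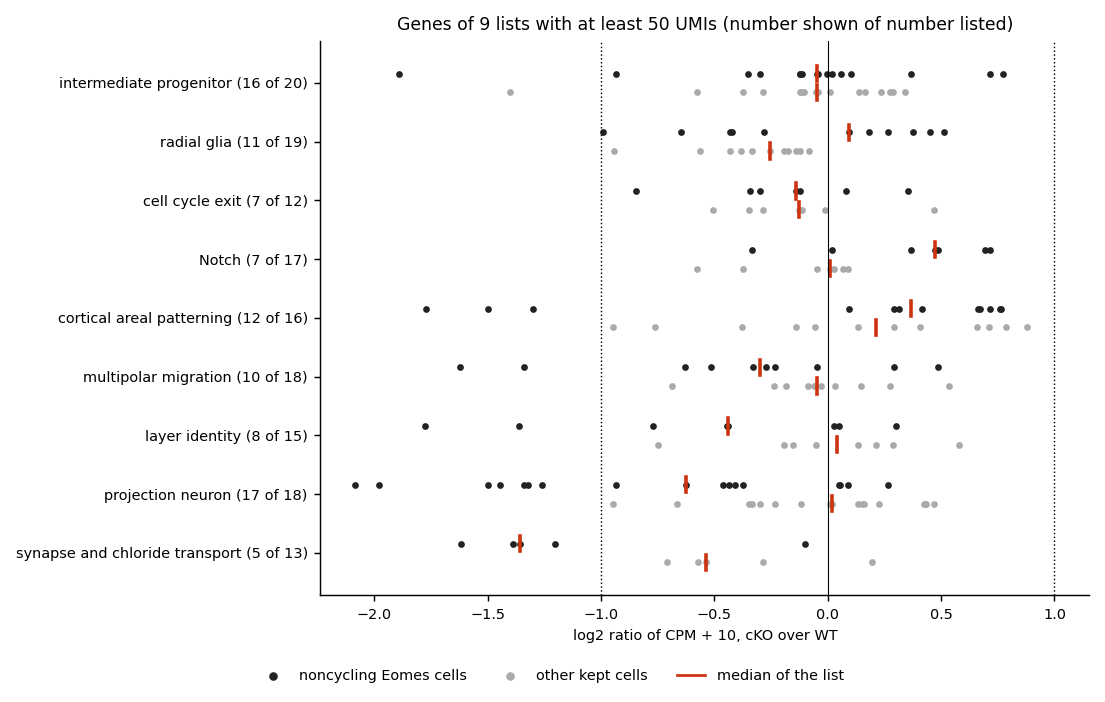
Log2 ratio of CPM + 10, cKO over WT (horizontal axis), for the genes of 9 lists (vertical axis) with at least 50 UMIs; black points are noncycling Eomes cells, grey points the same genes in other kept cells, and red bars list medians. The projection neuron median was -0.63 in noncycling Eomes cells and 0.020 in other kept cells, while the intermediate progenitor medians were -0.046 and -0.049.

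Few synaptic genes could be compared. Of the 13 genes of synapses and chloride transport 5 had enough UMIs, none of them a chloride transporter, and 4 of these were lower by at least 2-fold, among them Gria2, Grin2b and Nrxn3. Grin2b and Nrxn3 reached 50 UMIs in WT alone, so 2 of 3 genes with 50 UMIs in both libraries were lower. The median over the 5 was -1.36 beside -0.54 in other kept cells. Snap25, a protein of vesicle fusion, was at 56.6 and 52.1 CPM. Gria2, a glutamate receptor subunit, was at 482 CPM in WT (interval 443 to 525) and 182 CPM in cKO (interval 159 to 208). Grin2b, a subunit of the NMDA receptor, differed by -1.39 on the log2 scale. The same 4 genes were lower by at least 2-fold without the Stmn2-rich cells and without the doublets.

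Among migration genes 2 of 10 were lower, Unc5d and Sema3c, and 0 were higher, with a median of -0.30 beside -0.046. Unc5d was at 203 CPM in WT (interval 177 to 231) and 73.9 CPM in cKO (interval 59.3 to 91.1), and at 45.0 and 24.2 CPM in other kept cells. Sema3c was at 290 CPM (259 to 323) and 87.4 CPM (71.4 to 106), whereas other kept cells were nearly level at 65.0 and 61.9 CPM. It was seen in 109 of 155 WT cells and 50 of 138 cKO cells, without thinning, and in the deeper of the libraries the share was the lower one. Lrp8, a reelin receptor, was on the other side at 232 and 329 CPM.

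Layer genes held 2 lower of 8, Cux2 and Bcl11b, with a median of -0.44 beside 0.042. Both reached 50 UMIs in WT alone, and 0 of the 6 genes that did so in both libraries were lower. Cux2, a factor of upper-layer neurons and their progenitors, was at 80.6 and 25.2 CPM, and Bcl11b, also called Ctip2, a factor of deep-layer neurons, at 113 and 26.1 CPM. Cux1 was level at 167 and 171 CPM, and Pou3f3 was at 479 and 593 CPM.

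The study had looked at Emx2 and Lhx2 in progenitors, the first a homeobox factor that sets the areas of the cortex and the second a selector of cortical fate. Lhx2 was higher in the cKO cells, at 829 CPM in WT (interval 776 to 883) and 1319 CPM in cKO (interval 1255 to 1386), which is 0.66 on the log2 scale with an interval of 0.55 to 0.79. Its median was 5 UMIs a cell in WT and 10 in cKO. Emx2 was at 54.9 CPM (42.1 to 70.4) and 93.3 CPM (76.7 to 112), seen in 44 of 155 and 63 of 138 cells. The UMIs a cell and the numbers of cells were taken without thinning, and the cKO cells were deeper, with a median of 8074 UMIs against 6373 in WT. The intervals of each gene did not overlap between the libraries, and neither passed 2-fold. With a stricter cell filter, which left 38 WT and 24 cKO cells, the log2 ratio of Lhx2 was 0.17.

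The same direction was found outside these cells for Lhx2. Its log2 ratio was 0.79 in other kept cells, 0.77 in noncycling radial glia and 0.65 in Eomes-negative projection neurons. Microglia, which should lack it, held 16.3 CPM in WT and 65.6 CPM in cKO. Emx2 was 0.25 in noncycling radial glia and 0.025 in dividing Eomes cells. Emx1, a relative of Emx2, was at 204 and 352 CPM in noncycling Eomes cells, and at a log2 ratio of 0.88 in other kept cells. Of the 12 areal patterning genes 0 were higher by 2-fold and 3 were lower, Lmo4, Bhlhe22 and Etv1, with a median of 0.37 beside 0.21. Bhlhe22 and Etv1 reached 50 UMIs in WT alone.

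Several of the largest differences between the libraries in these cells were found in other cells too. Ezh2, the methyltransferase of Polycomb repressive complex 2, was at 205 CPM in WT (interval 180 to 234) and 4.20 CPM in cKO (interval 1.36 to 9.81), and was seen in 121 of 155 and 5 of 138 cells. It was also lower in other kept cells, at 134 and 21.1 CPM, and in microglia, which are not born from neural progenitors, at 73.5 and 12.7 CPM. The other complex members were not past 2-fold, with Suz12 at 67.3 and 77.3 CPM and Jarid2 at 128 and 73.1 CPM. Dynll1, a dynein light chain, was at 1069 and 124 CPM, and its log2 ratio of -3.01 stood beside -2.02 in microglia.

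Next came Mrpl14, Mrpl36 and N6amt2, with log2 ratios of -2.80, -2.69 and -2.61, and in microglia of -1.88, -0.83 and -1.07. Stmn4, Ap3b2, Meg3, Btbd17 and Akr1e1 followed at -2.55, -2.54, -2.48, -2.45 and -2.43, with 0.20, -0.040, -0.70, -0.86 and -2.18 in microglia. Akr1e1, an aldo-keto reductase, was at 0.33 in dividing Eomes cells. On the higher side Gm8730 was at 29.2 and 911 CPM, with a log2 ratio of 4.55 in these cells and 3.90 in microglia. It is annotated as a pseudogene and resembles Rplp0, a ribosomal protein gene at 2179 and 2399 CPM, so the split of reads between them is uncertain. Dyrk2, a kinase, and Arrdc4, an arrestin-like gene, were at log2 ratios of 2.13 and 1.97, with 1.99 and 1.79 in microglia. Stmn4 and Ap3b2, which are neuronal genes, were also at -0.99 and -1.02 in Eomes-negative projection neurons and at -0.96 and -0.89 in noncycling radial glia. Some of the differences were thus shared with cells of another lineage, and what they came from was not tested. Whether both libraries were mapped and counted with the same annotation is not given in the sources used here.

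**Figure D5:**
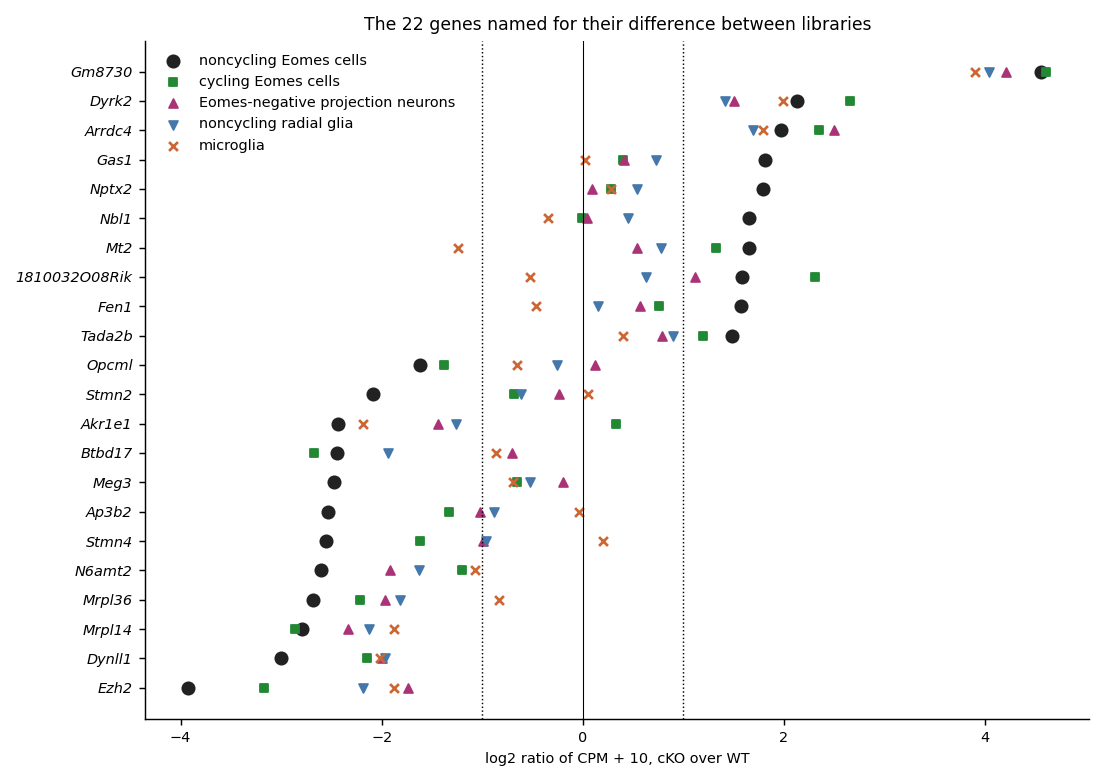
Log2 ratio of CPM + 10, cKO over WT (horizontal axis), of the 22 genes named for their difference (vertical axis); black circles are noncycling Eomes cells and the other symbols are dividing Eomes cells, Eomes-negative projection neurons, noncycling radial glia and microglia. Ezh2, Dynll1, Gm8730, Dyrk2 and Arrdc4 differ in the same direction in all 5. Meg3, Stmn2 and Nptx2 lie apart in noncycling Eomes cells, but were picked for their difference to other kept cells.

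The log2 ratio in noncycling Eomes cells was set against that in all other kept cells. The 5 genes with the most negative difference were Meg3, Stmn2, Opcml, Stmn4 and Ezh2. The interval of each difference lay below 0, but the genes were picked for that difference, so this is no separate result. Opcml, Stmn4 and Ezh2 reached the UMI limit for the gene comparison in WT alone, whereas Meg3 and Stmn2 reached it in both libraries. Meg3 was at 612 CPM in WT (interval 567 to 659) and 102 CPM in cKO (interval 84.4 to 122), but at 2136 and 2035 CPM in other kept cells. Stmn4, a relative of Stmn2, was at 152 and 17.7 CPM against 402 and 235 CPM, and Opcml, a cell adhesion molecule, at 64.6 and 14.3 CPM against 188 and 217 CPM. Without the Stmn2-rich cells Meg3 was at -1.62 in place of -2.48. The 10 richest WT cells held 64.4% of the 73 Opcml UMIs, and its log2 ratio of -1.62 became -0.76 with a limit of 1 Eomes UMI and -0.27 with a stricter cell filter. In the dividing Eomes cells the log2 ratios were -0.65 for Meg3, -1.62 for Stmn4, -1.38 for Opcml and -3.17 for Ezh2, and that of Stmn2 was -0.69, so all 5 genes had the same direction in the nearest cells.

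In the other direction stood Nptx2, Mt2, Nbl1, Gas1 and Fen1, with log2 ratios in the dividing Eomes cells of 0.28, 1.32, -0.0085, 0.40 and 0.75. These genes too were picked for their difference to other kept cells, so that difference is no separate result. Each of them reached the UMI limit for the gene comparison in cKO alone, and so was admitted through its higher side. Nptx2, a secreted pentraxin, was at 5.31 CPM in WT (interval 1.95 to 11.6) and 42.9 CPM in cKO (interval 31.9 to 56.4), seen in 4 and 29 cells. Mt2, a metal-binding protein, was at 31.9 and 122 CPM, seen in 20 and 63 cells. The numbers of cells were taken without thinning, and the cKO cells were the deeper ones. Gas1, a growth arrest protein of radial glia, was at 24.8 and 112 CPM, but 82.0% of its cKO UMIs came from 10 cells and its log2 ratio of 1.81 became 0.31 when cells were thinned before the rule. Fen1, a nuclease of DNA replication, was at 17.7 and 72.3 CPM. Gas1 and Mt2 are also genes of radial glia in these libraries, where they stood at 360 and 601 CPM and at 301 and 521 CPM.

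The remaining lists held few genes past 2-fold, and the 4 named as such (Hsph1, Ezh2, Arrdc4 and Klf9) each reached 50 UMIs in 1 library alone. Cell cycle exit genes had 0 of 7, with a median of -0.14, and G1/S genes 0 of 7 with 0.21. Of the G2/M list only Hmgb2 had enough UMIs, and it was not past 2-fold. Immediate early genes had 0 of 6 with a median of 0.25, heat shock genes 1 lower of 8 (Hsph1, at 106 and 41.2 CPM) with -0.35, and Polycomb genes 1 lower of 5 (Ezh2) with -0.16. Glucocorticoid and fasting response genes had 2 higher of 7, Arrdc4 and Klf9, the latter a zinc-finger factor at 20.4 and 56.3 CPM, with a median of 0.38 beside 0.21. Of 13 genes of STING and NF-kB signalling only Chuk and Nfkbia had enough UMIs, neither past 2-fold, and Alx4 was at 0 in both libraries.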

How the data were processed

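The 2 libraries were grouped by the genotype in the labels. For each, the authors deposited a matrix of raw UMI counts per gene and barcode, not normalized. Its header names Cell Ranger 3.0.1, whereas the submitters' processing notes name Cell Ranger 2, STAR, Seurat and the build mm9. The annotation is not given in the sources used here, so no coordinates are printed. A combined matrix, totals for each barcode and a table of cluster markers with the authors' own fold changes were left aside.

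Cells and the rule are given with the results. Members, gene lists and comparisons were chosen with earlier results of these data known. UMIs were summed per library and scaled to CPM, with exact Poisson intervals. Ratios carry exact conditional binomial intervals without the added CPM, shares Clopper-Pearson intervals. Named genes were the 10 highest and 10 lowest log2 ratios of CPM + 10 with intervals that did not overlap, from genes of 50 or more UMIs, the 15 leading genes over other kept cells, the 5 highest and 5 lowest differences to other kept cells, the genes of 27 lists, those of the rule, Tmem173, Emx2 and Lhx2; mitochondrial, haemoglobin, Xist, Tsix and Y-linked genes were left out. Genes of the Tac2 subset, Prox1, Lhx9, Ptn and Rplp0 were added after values were seen. Doublets were kept in the main result. Scrublet (scanpy 1.11.5, expected rate 6%) called 2.44% of WT and 1.74% of cKO kept cells and was used as an alternative; an expected rate left at its default gave no calls in cKO. TMM factors came from edgeR 4.0.16 (R 4.3.3), used for scaling alone. The computation of ratios was tested on simulated data. A few members of the lists are counted but not reported here by name.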

Additional observations from a re-analysis of the deposited data

How the results depend on the processing

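The cell limits, doublets, thinning, scaling and the added CPM were each varied. Leaving out cells with 10 or more Stmn2 UMIs, or cells without an Sstr2, Mfap4 or Neurog2 UMI, was chosen after seeing the data. No paired analysis was possible because each group had 1 library and the labels gave no shared replicate numbers. Of 1077 recomputed values 81 moved by more than their counting interval, a count by more than 1.5 times or a list median by 0.3, and 1 gene whose intervals did not overlap changed sign, Ccnd2, at -0.0055 when cells were thinned before the rule. Genes near level, the difference in share and some list medians near 0, the intermediate progenitor and radial glia medians among them, also crossed 0. The difference in share stayed between -0.53 and 0.24 percentage points. The 138 genes higher in cKO became 253 with CPM + 1, 210 with TMM factors and 34 with the stricter cell filter of at least 1000 genes and at most 5% mitochondrial UMIs. The 339 lower became 224 after thinning before the rule, 645 with genes of at least 10 UMIs and 60 with the stricter filter, which left 38 WT and 24 cKO cells and so fewer genes with 50 UMIs. Log2 ratios ranged from -5.31 to -3.58 for Ezh2, -2.58 to -1.29 for Meg3 and -2.14 to -0.29 for Mef2c. The projection neuron median ranged from -0.70 to -0.51, the radial glia median from -0.26 to 0.48. Counts under 50 UMIs limit what could be compared at this depth.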
